A study of Mus musculus with 16 samples.

Results

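Bone resorption by osteoclasts and bone formation by osteoblasts are tied to each other by signals that pass between the cells, and 8 genes of this exchange were examined in cortical bone: Sema3a, Sema4d, Plxnb1, Nrp1, Efnb2, Ephb4, Sphk1 and Cthrc1. The genes were chosen by symbol, and each of the 8 was carried by exactly 1 of the 36829 features listed for every mouse. RNA came from the femoral cortical bone of 16 female C57Bl/6 mice of 11 weeks, after the bone ends had been cut off and the marrow flushed out. In the hindlimb unloading (HLU) group, 8 mice had spent 7 days suspended by a tail harness that took the load off the hind limbs, and in the Control group 8 mice had borne weight normally. The labels name no transgene or drug for either group, the tails were taped to the harness under isoflurane, and each mouse gave 1 library. The question was whether the abundance of these transcripts differed after disuse, and which of them rose and fell together from mouse to mouse.

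In bone remodeling, osteoclasts remove old matrix and osteoblasts refill the cavity, while osteocytes buried in the matrix sense load. Semaphorins are guidance ligands: semaphorin 3A, read through neuropilin-1, restrains osteoclasts and favors osteoblasts, whereas semaphorin 4D from osteoclasts acts on plexin-B1 to restrain osteoblasts. Ephrin-B2 and the receptor EphB4 signal in both directions across cell contacts, and sphingosine kinase 1 makes the lipid sphingosine-1-phosphate. Cthrc1 is a secreted protein that has been described as a signal from osteoclasts to the osteoblast lineage. Several of these genes also have known roles elsewhere, above all in blood vessels, where neuropilin-1, ephrin-B2 and EphB4 pattern arteries and veins.

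None of the 8 genes passed the test for a difference after unloading. With a limit of 1.2-fold and of 0.05 for the unadjusted p, 0 of 8 were higher and 0 of 8 were lower in HLU mice, against 1.11% of the 16973 features tested that were higher and 4.76% that were lower. All 8 reached 0.5 RPKM on average, the minimum for testing, so that no member was left out. At an adjusted p under 0.1 limma, a gene-by-gene linear model that borrows variance across genes, called 0% of features in either direction (lowest adjusted p = 0.256), so that a count of 0 among the 8 genes was also the count among all of them, although 1049 features had an unadjusted p under 0.05. RPKM scale the reads of a gene to its length and to the size of its library, and all differences are given as HLU minus Control on the log2(RPKM + 0.1) scale. The median difference of the 8 genes was -0.03, beside -0.10 over all features tested. Rescaling by median-of-ratios size factors moved the median of all features to -0.02 and quantile normalization moved it to 0.00. Rescaling to nuclear genes outside the 10 most abundant features moved it to 0.03. A negative difference of the size of 0.1 therefore had no fixed sign. The positive differences of Nrp1, Efnb2 and Ephb4 stayed positive under each of these rescalings. The labels do not say whether the mice differed in litter or cage. Libraries were sequenced 8 per lane, but the lane of each was not given, so whether lanes coincided with groups is not known. The p-values set a group difference against the spread between these animals, and lane, litter or cage cannot be told apart from group.

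The libraries held between 7067512 (Control 2) and 21363584 (HLU 6) reads, as recovered from the RPKM values, and Control 2 and HLU 5 were the smallest. The label of cortical bone was checked against osteocyte and osteoblast genes, which were present in every mouse, with the osteocyte gene Mepe between 58.7 and 323 RPKM, the osteocyte gene Sost between 29.4 and 136 RPKM and the collagen gene Col1a1 between 157 and 623 RPKM. Genes of other cells were also abundant, with the neutrophil gene S100a8 between 4438 and 16313 RPKM and the globin gene Hbb-b1 between 345 and 2703 RPKM. The 10 erythroid markers all had a lower mean log2 value in HLU mice and 3 of them were called lower, and their summed level ran from 3009 to 8643 RPKM in Control and from 1658 to 4454 RPKM in HLU mice. Of 5 megakaryocyte markers 3 were called lower, with sums from 953 to 1600 RPKM in Control and from 411 to 1372 RPKM in HLU mice. All 8 osteocyte markers had a positive difference and 1 of them was called higher, with sums from 185 to 610 RPKM in Control and from 272 to 621 RPKM in HLU mice. In bulk bone, fewer cells of a type and less RNA per cell cannot be told apart.

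The genes lie on 6 chromosomes, and their positions are those of GENCODE M21 on GRCm38, since the deposited values hold no coordinates. Sema3a spans chr5:13125414-13602565 and Ephb4 chr5:137350109-137378669, Nrp1 chr8:128358604-128503363 and Efnb2 chr8:8617434-8661242, and Plxnb1 chr9:109095389-109119917. Sphk1 spans chr11:116530925-116536674, Sema4d chr13:51685529-51793747 and Cthrc1 chr15:39076932-39087121. Efnb2 and Sema4d are on the minus strand. Plxnb1 overlaps the antisense gene Gm7628, and on the other strand Ephb4 overlaps Zan, Sphk1 overlaps Gm29292, Sema3a overlaps Gm42680 and Sema4d overlaps Gm23566. On the same strand Sema3a overlaps Gm43130, Gm42676 and Gm42675, Nrp1 overlaps Mir1903 and Efnb2 overlaps E230020D15Rik, Gm45074 and Gm45073. The counting was not stated to use strand, and reads of such overlapping genes cannot be told apart.

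The promoters of Plxnb1 and Ephb4 and of Nrp1 and Efnb2 are shown because these were the pairs whose transcript levels covaried most closely between mice. Each line gives the 200 bases from 250 to 51 bases before a RefSeq transcription start on GRCm38.p6, 5′ to 3′ on the gene's strand. The windows are chr9:109095186-109095385 on the plus strand, chr5:137349859-137350058 on the plus strand, chr8:128358823-128359022 on the plus strand and chr8:8661293-8661492 on the minus strand. The window of Plxnb1 also lies in an exon of the antisense gene Gm7628. Capitals mark matches, on either strand, to any of 5 motifs that were searched by their letters. The GC box was searched as GGGCGG, a site of factors of the Sp family. The CCAAT box was searched by the letters of its name. The TATA box was searched as TATAAA, the element found before some start sites. The E-box was searched in the palindromic form CACGTG, which reads alike on both strands. The ETS site was searched as CCGGAAG, and no matches in the windows shown overlapped each other.
Plxnb1: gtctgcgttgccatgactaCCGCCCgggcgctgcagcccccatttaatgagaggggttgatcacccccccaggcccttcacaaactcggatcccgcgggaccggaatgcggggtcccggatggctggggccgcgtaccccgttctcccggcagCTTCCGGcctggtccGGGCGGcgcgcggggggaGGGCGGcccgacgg
Ephb4: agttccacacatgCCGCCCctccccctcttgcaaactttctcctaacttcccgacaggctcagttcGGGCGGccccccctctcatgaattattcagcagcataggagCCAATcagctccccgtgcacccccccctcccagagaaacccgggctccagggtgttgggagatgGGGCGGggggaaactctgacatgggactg
Nrp1: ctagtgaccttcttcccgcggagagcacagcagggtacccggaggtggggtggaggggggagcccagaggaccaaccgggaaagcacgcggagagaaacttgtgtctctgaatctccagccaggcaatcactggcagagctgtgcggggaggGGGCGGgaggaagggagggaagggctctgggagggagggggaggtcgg
Efnb2: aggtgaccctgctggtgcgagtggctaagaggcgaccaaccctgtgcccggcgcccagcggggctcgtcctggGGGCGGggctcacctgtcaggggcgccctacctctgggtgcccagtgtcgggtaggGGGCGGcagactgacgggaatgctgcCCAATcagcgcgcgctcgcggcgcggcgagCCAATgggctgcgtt
The window of Plxnb1 held 3 GC boxes and 1 ETS site, that of Ephb4 3 GC boxes and 1 CCAAT box, that of Nrp1 1 GC box and that of Efnb2 2 GC boxes and 2 CCAAT boxes. Among 32851 such windows, 24.6% held a GC box, 28.4% a CCAAT box, 9.14% a TATA box, 4.34% an E-box and 3.98% an ETS site. The share of G and C was 72.5% in Plxnb1, 61.5% in Ephb4, 66% in Nrp1 and 72% in Efnb2, above the median of 51.5% over all windows. A GC box was the motif that the 4 windows had in common, and a match of letters is a description of the sequence and not of a bound site. The windows of Sema3a, Sema4d and Sphk1 held no GC box. Those of Sema3a and Sema4d lie inside the gene spans given above, before internal starts, as does the window of Nrp1. The windows of Sphk1 also reach into its span. These windows therefore do not describe the sequence before the first annotated start. The RefSeq windows covered 7 of the 8 genes, without Cthrc1.

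Sema3a, the ligand that protects bone, was the gene with the lowest difference. In Control mice Sema3a had a lowest value of 0.793, a median of 1.34 and a highest of 2.49 RPKM, and in HLU mice a lowest of 0.767, a median of 1.01 and a highest of 1.68 RPKM. The groups overlapped, and 7 of the 8 unloaded mice were under the Control median and 1 was under every Control mouse. Such a count was not particular to Sema3a, since only 2 of the 8 unloaded mice were above the Control median for Cthrc1, with a difference of -0.005. The same count of 2 was found for Sema4d and Plxnb1. The means were 1.39 ± 0.524 RPKM in the Control group and 1.08 ± 0.286 RPKM in the HLU group (SD, n = 8 per group), a difference of -0.31 ± 0.21 (SE) on the log2 scale that did not exceed the spread between mice (limma adjusted p = 0.757, two-sided exact permutation p = 0.152). Its 95% interval ran from 0.594-fold to 1.1-fold. With erythroid and granulocyte marker scores as covariates the difference was -0.51, past the unadjusted limit but not the adjusted one (limma adjusted p = 0.204). Under that model 1267 features were higher and 1693 lower at the unadjusted threshold, against 188 and 808 without covariates. The Sema3a difference was -0.18 after rescaling to nuclear genes and -0.18 without Control 6, the Control mouse with the highest value. Sema3a was in turn the only member whose correlation with the osteoblast marker score was negative (r = -0.392, permutation p = 0.171, adjusted p = 0.293), and that value did not pass the threshold.

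Sema4d, the opposing ligand, showed no difference past the threshold. Control mice had a lowest value of 3.12, a median of 6.95 and a highest of 7.67 RPKM, and HLU mice a lowest of 4.84, a median of 5.88 and a highest of 7.19 RPKM. The HLU mice lay inside the Control range, in which Control 2 stood apart at the bottom. The difference was -0.05 ± 0.17 (SE, limma adjusted p = 0.943, exact permutation p = 0.804), with a 95% interval from 0.758-fold to 1.23-fold. It was negative as deposited and positive after median-of-ratios rescaling (0.04).

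The receptors of the semaphorins did not pass the test either. Nrp1, the receptor subunit for semaphorin 3A, had a lowest value of 14.6, a median of 17.2 and a highest of 20.7 RPKM in Control mice, and 13.8, 16.8 and 23.1 RPKM in HLU mice. The HLU mice reached past both ends of the Control range, with 2 mice above it, HLU 4 and HLU 5, and 1 below it. The difference of 0.02 ± 0.12 (SE, limma adjusted p = 0.972, exact permutation p = 0.863) had the narrowest interval of the 8 genes, from 0.852-fold to 1.2-fold.

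Plxnb1, the receptor for semaphorin 4D, had a lowest value of 0.514, a median of 1.44 and a highest of 2.19 RPKM in Control mice, and 0.665, 1.03 and 1.75 RPKM in HLU mice. All HLU mice lay within the Control range, whose low end was held by Control 1, Control 2 and Control 6. The difference was -0.08 ± 0.29 (SE, limma adjusted p = 0.945, exact permutation p = 0.78), and the interval from 0.613-fold to 1.45-fold left room for a change of either sign.

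The contact signals ephrin-B2 and EphB4 gave positive differences smaller than the spread between mice. Efnb2, the ligand, had a lowest value of 1.73, a median of 2.01 and a highest of 3.07 RPKM in Control mice, and 1.37, 2.45 and 3.96 RPKM in HLU mice. HLU values were more spread, with 2 mice above every Control mouse and 2 below. The difference was 0.11 ± 0.20 (SE, limma adjusted p = 0.895, exact permutation p = 0.598), with an interval from 0.802-fold to 1.45-fold.

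Ephb4, the receptor, had a lowest value of 0.97, a median of 1.88 and a highest of 2.69 RPKM in Control mice, and 1.26, 1.92 and 2.81 RPKM in HLU mice. The groups lay over each other, with HLU 1 and HLU 7 just above the highest Control mouse. The difference was 0.08 ± 0.24 (SE, limma adjusted p = 0.939, exact permutation p = 0.751), with an interval from 0.747-fold to 1.49-fold.

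Sphk1 and Cthrc1, a lipid kinase and a secreted protein, varied most between mice. Sphk1 had a lowest value of 0.461, a median of 1.28 and a highest of 3.39 RPKM in Control mice, and 0.462, 0.977 and 1.34 RPKM in HLU mice. Of the unloaded mice 7 were under the Control median, but the Control mice spanned both ends, from Control 1 at the bottom to Control 7 at the top. The difference was -0.30 ± 0.32 (SE, limma adjusted p = 0.807, exact permutation p = 0.391), and it was -0.10 without Control 7 and -0.17 without HLU 4.

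The sign of the Sphk1 difference turned with the blood-cell markers. Sphk1 followed the erythroid score between mice within groups (r = 0.728, rho = 0.718, permutation p = 0.0001, adjusted p = 0.0032 over 96 relations), and the erythroid markers were themselves lower in HLU mice, as given above. With erythroid and granulocyte scores as covariates, the Sphk1 difference was 0.39, past the unadjusted limit but not the adjusted one (limma adjusted p = 0.191), in place of -0.30. Under that model 1267 features were higher and 1693 lower at the unadjusted threshold, so that the value for Sphk1 was reached where many features passed. The part of the erythroid cells in the Sphk1 values was not tested.

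Cthrc1 had a lowest value of 2.03, a median of 6.66 and a highest of 11.5 RPKM in Control mice, and 3.89, 6.2 and 12.4 RPKM in HLU mice. Control mice fell toward both ends, and HLU 1 alone lay above them. The difference was -0.005 ± 0.34 (SE, limma adjusted p = 0.997, exact permutation p = 0.989), with an interval from 0.604-fold to 1.64-fold, the widest of the 8 genes on the log2 scale, beside 0.508-fold to 1.3-fold for Sphk1.

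**Figure D1:**
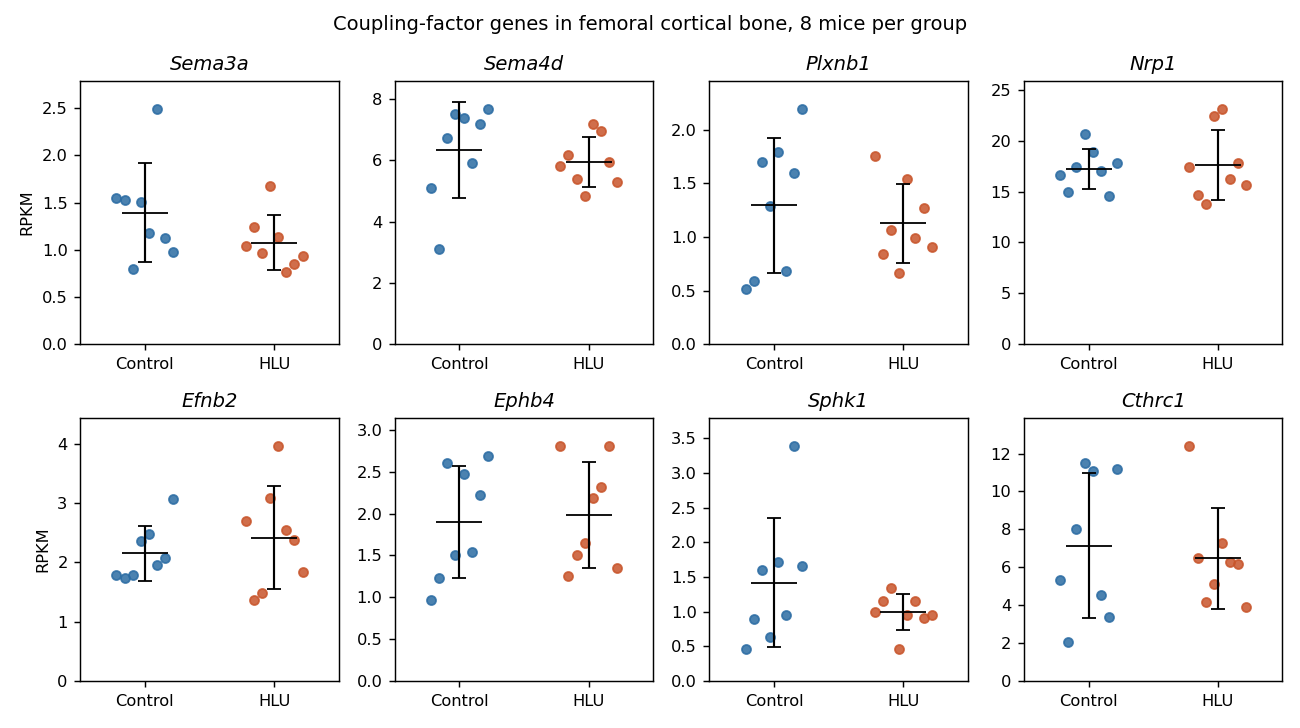
RPKM of each coupling-factor gene in every mouse, with Control mice in blue and HLU mice in orange; black bars give the mean and SD of 8 mice, and the axes start at 0. The groups overlap for each of the 8 genes, and relative to their level Sphk1 (0.461 to 3.39 RPKM) and Cthrc1 (2.03 to 11.5 RPKM) have the widest Control ranges.

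**Figure D2:**
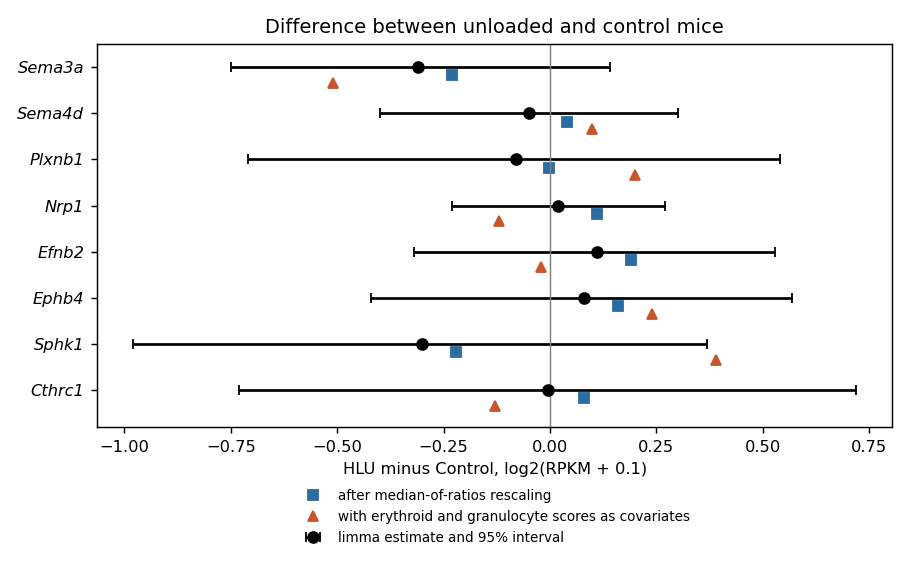
Difference between HLU and Control for each gene on the log2(RPKM + 0.1) scale, with the limma estimate and 95% interval in black, the estimate after median-of-ratios rescaling as blue squares and that with erythroid and granulocyte scores as covariates as orange triangles. All 8 intervals cross 0, and Sphk1 moves from -0.30 to 0.39 with the covariates.

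The spread between mice was not that of counting. The reads behind a value ran from 38 (Cthrc1 in Control 2) to 2159 (Nrp1 in HLU 4), and the SD between mice of the log2 values was 4.1 times the SD that counting alone would give for Sema3a and 6.92 times for Cthrc1, with the other genes between these. The 8 genes thus differed from mouse to mouse within each group by more than their read counts would give. Reads are not independent molecules, and these ratios cover counting error only.

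The balance of ligand and receptor was compared as the difference of log2 values within each mouse. The ratio of Sema3a to Nrp1 was lower by a log2 difference of -0.32 ± 0.21 (SE) in HLU mice, with 7 of the 8 unloaded mice under the Control median (exact permutation p = 0.138, adjusted p = 0.554 over 4 ratios), and without Control 3 it was -0.42 (exact permutation p = 0.0463, unadjusted) and without Control 6 it was -0.20 (exact permutation p = 0.276, unadjusted). The ratio of Sema4d to Plxnb1 differed by 0.03 ± 0.21 (SE, exact permutation p = 0.872, adjusted p = 0.876) and that of Efnb2 to Ephb4 by 0.03 ± 0.21 (SE, exact permutation p = 0.876, adjusted p = 0.876). The ratio of Sema3a to Sema4d, the ligands with opposed actions, differed by -0.26 ± 0.31 (SE, exact permutation p = 0.423, adjusted p = 0.845). No ratio passed the adjusted threshold.

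Between mice of the same group, the 8 genes did not vary independently. Each of the 28 pairs was correlated over the 16 mice after the group means had been removed, with 100000 permutations of mice within groups, and 4 pairs passed an adjusted p of 0.05 by Pearson's r, all with a positive r. By Spearman's rho 12 pairs passed, 9 of them positive and 3 negative. The median r over the 28 pairs was 0.421. All values of a mouse come from 1 library and share its depth and its mixture of cells.

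Plxnb1 and Ephb4, receptors of different ligand families, formed the closest pair. Their r was 0.854 and rho 0.850 (permutation p = 0.0001, adjusted p = 0.0028), with r = 0.940 in Control and 0.722 in HLU mice, and r was 0.757 without Control 1 and Control 2, the mice farthest from the middle. Mice high in one receptor were high in the other, among them Control 8 and HLU 1. Ranked by r with Plxnb1, Ephb4 was number 124 of 16972 features, so that 0.731% of features followed Plxnb1 at least as closely. Ranked by r with Ephb4, Plxnb1 was number 418 (2.46%). The promoter windows of both genes, shown above, held 3 GC boxes each, and any relation of these matches to the covariation was not tested.

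Nrp1 and Efnb2 formed another pair, with r = 0.816 and rho = 0.841 (permutation p = 0.00061, adjusted p = 0.00854). It was closer among HLU mice (r = 0.918) than among Control mice (r = 0.517), a difference that was not tested, and r was 0.666 without HLU 4 and HLU 5, the mice with the highest values of Nrp1. Nrp1 was number 43 of 16972 features by its r with Efnb2 (0.253%), and Efnb2 was number 192 by its r with Nrp1 (1.13%).

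Sema4d covaried with its receptor Plxnb1 (r = 0.730, rho = 0.721, permutation p = 0.00176, adjusted p = 0.0164), and r was 0.713 without Control 2 and HLU 4. Without Control 6 the pair no longer passed (r = 0.757, adjusted permutation p = 0.0666). Plxnb1 was number 283 of 16972 features by its r with Sema4d (1.67%), and Sema4d was number 885 by its r with Plxnb1 (5.21%). Sema4d also covaried with Cthrc1 (r = 0.718, rho = 0.671, permutation p = 0.00544, adjusted p = 0.0381), but r was 0.496 without Control 2 (adjusted permutation p = 0.122) and 0.720 without HLU 4. This relation passed in 11 alternatives and fell short in 9. Among the 9 were those without Control 3, 4, 5, 6 or 8 and those without HLU 3 or HLU 8. Sema3a had its lowest correlations with 3 of the genes, an r of -0.652 with Plxnb1 (permutation p = 0.0121, adjusted p = 0.0607), -0.576 with Ephb4 (permutation p = 0.0276, adjusted p = 0.0703) and -0.589 with Sphk1 (permutation p = 0.0337, adjusted p = 0.0727), none past the threshold by Pearson's r. By Spearman's rho these 3 relations had an adjusted permutation p of 0.0396 each, with rho of -0.644, -0.635 and -0.644. The ligand and receptor Sema3a and Nrp1 had an r of 0.227 (permutation p = 0.369, adjusted p = 0.43).

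**Figure D3:**
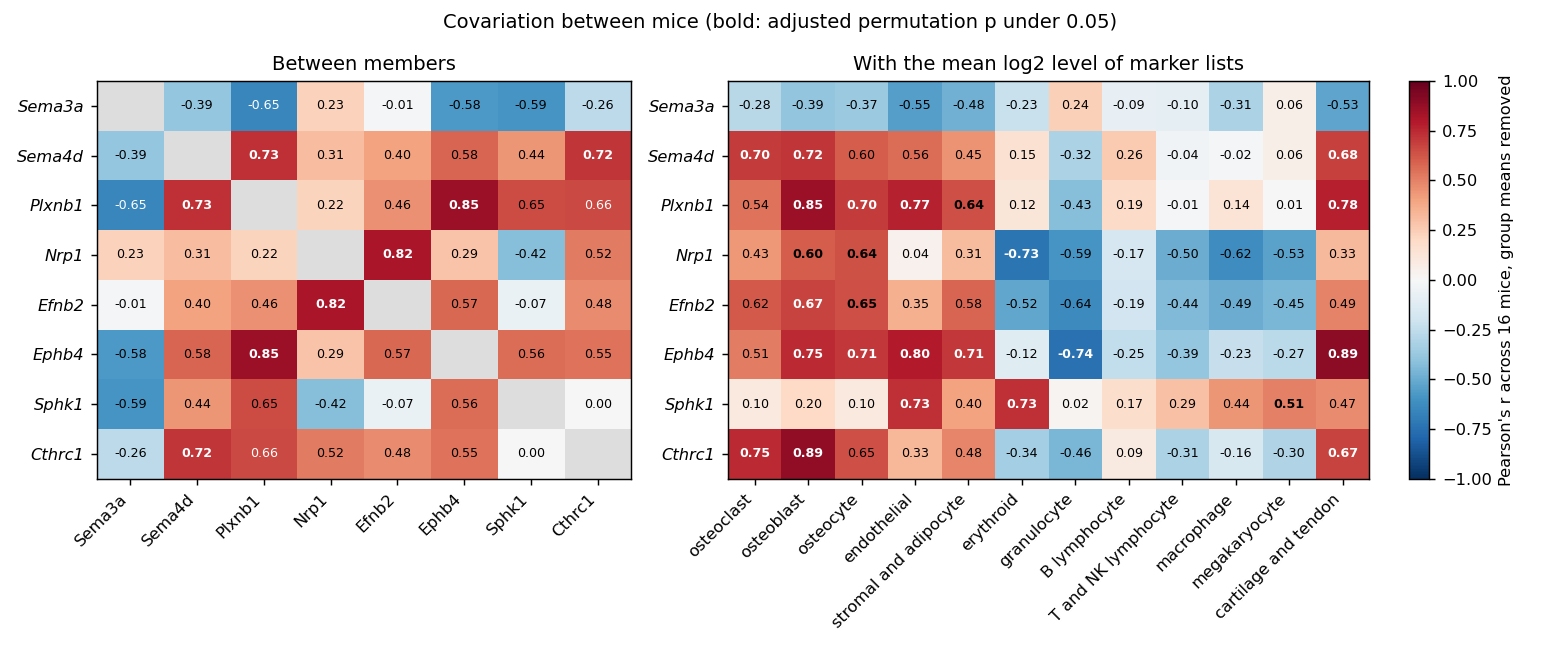
Pearson's r across 16 mice, with group means removed, between the 8 genes (left) and between each gene and the marker scores (right). A marker score is the mean log2(RPKM + 0.1) of a list, each gene taken relative to its mean over the 16 mice. Red is positive, blue negative, and grey is a gene with itself. Bold marks an adjusted permutation p under 0.05 over 28 and over 96 relations. Bold values are 4 pairs on the left and 25 relations on the right, of which 23 are positive.

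The same genes also followed the cell types whose markers varied between mice. Of 96 relations between the 8 genes and 12 marker scores, 25 passed an adjusted p of 0.05 by Pearson's r, and 23 of them were positive. By Spearman's rho 32 passed, 27 of them positive and 5 negative. The relations named below passed by r unless rho is named. How many of all features would pass with the same scores was not computed, so these counts have no background share beside them. The osteoblast score was followed by 6 of the 8 genes: Cthrc1 (r = 0.885, adjusted permutation p = 0.00192), Plxnb1 (0.853, 0.00384), Ephb4 (0.748, 0.017), Sema4d (0.718, 0.0132), Efnb2 (0.673, 0.017) and Nrp1 (0.602, 0.0421). Sema3a and Sphk1 were the genes that did not pass with it.

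The osteocyte score was followed by Ephb4 (r = 0.708, adjusted permutation p = 0.0213), Plxnb1 (0.702, 0.0362), Efnb2 (0.647, 0.017) and Nrp1 (0.638, 0.0213), all of which also followed the osteoblast score. The cartilage and tendon score was followed by Ephb4 (0.894, 0.0024), Plxnb1 (0.779, 0.014), Sema4d (0.681, 0.017) and Cthrc1 (0.673, 0.0362). Ephb4 and Plxnb1 passed with the stromal and adipocyte score as well (r = 0.706 and 0.643). By rho, Sema4d (0.691, adjusted permutation p = 0.0215), Cthrc1 (0.626, 0.0417) and Efnb2 (0.647, 0.0418) also passed with that score. Cthrc1 passed with the osteocyte score by rho (0.679, adjusted permutation p = 0.0413). With the cartilage and tendon score Cthrc1 passed by r but not by rho (0.644, adjusted permutation p = 0.0505).

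Fewer genes passed with the remaining scores. Cthrc1 and Sema4d, both described as osteoclast products, were the genes that passed by r with the osteoclast score (r = 0.747, adjusted permutation p = 0.00691, and r = 0.700, adjusted permutation p = 0.017). Their r with the osteoblast score was higher (0.885 and 0.718). By rho, Efnb2 passed with the osteoclast score as well (rho = 0.632, adjusted permutation p = 0.0479). Ephb4, Plxnb1 and Sphk1 passed with the endothelial score (r = 0.796, 0.769 and 0.732, adjusted permutation p = 0.00779 each), and the vascular genes Nrp1 and Efnb2 did not (r = 0.040 and 0.354). Sema4d passed with the endothelial score by rho (0.612, adjusted permutation p = 0.0418). Ephb4 had an inverse relation with granulocyte markers (r = -0.744, adjusted permutation p = 0.00779). By rho, Nrp1 (-0.724, adjusted permutation p = 0.0264) and Efnb2 (-0.694, adjusted permutation p = 0.0413) also passed inversely with granulocyte markers. Nrp1 did so with macrophage markers too (rho = -0.653, adjusted permutation p = 0.0418).

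Nrp1 and Sphk1 lay on opposite sides of the erythroid score. Nrp1 fell as erythroid markers rose between mice (r = -0.728, permutation p = 0.00388, adjusted p = 0.0213) and Sphk1 rose with them, and Sphk1 also passed with megakaryocyte markers (r = 0.507, permutation p = 0.00901, adjusted p = 0.0362), by r but not by rho (0.450, adjusted permutation p = 0.136). With erythroid and granulocyte scores as covariates 7 pairs of the 8 genes passed in place of 4. The pair of Sema4d and Plxnb1 did not pass with these covariates (r = 0.567, adjusted permutation p = 0.0708). Without the 2 smallest libraries 1 pair passed, Plxnb1 with Ephb4. Ephb4 was inversely related to the percentage of a library's reads that fell on listed features (r = -0.755, adjusted permutation p = 0.0194), the single relation of 16 with depth or that percentage to pass, and its part in the relations of Ephb4 was not tested.

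**Figure D4:**
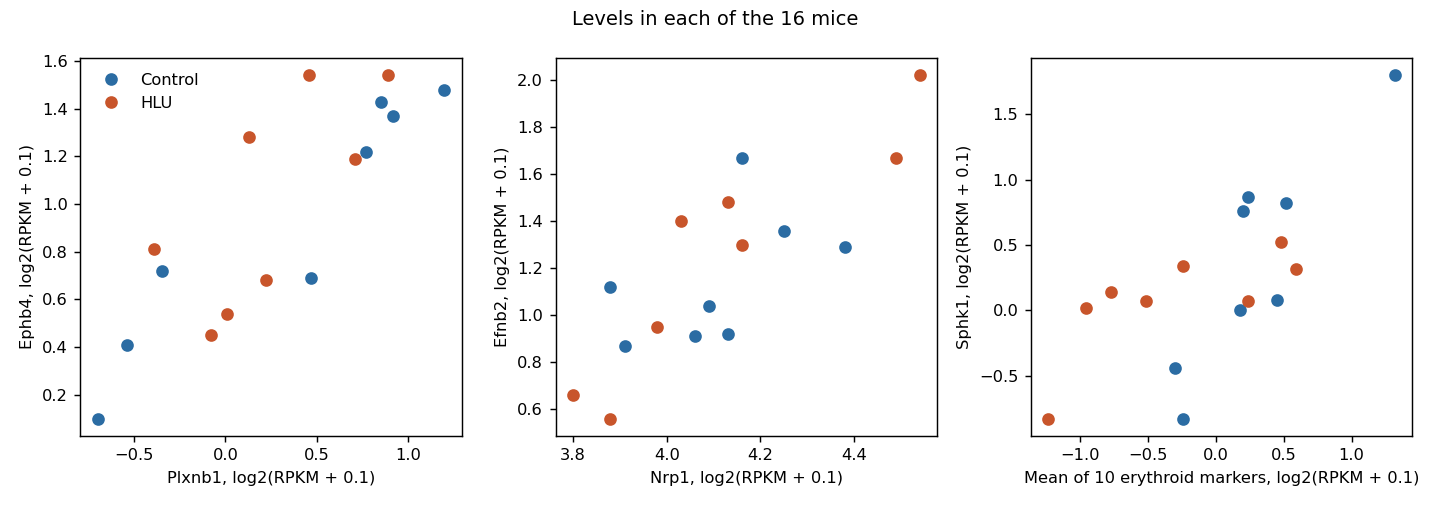
Levels in each of the 16 mice on the log2(RPKM + 0.1) scale, Control in blue and HLU in orange: Ephb4 against Plxnb1, Efnb2 against Nrp1, and Sphk1 against the erythroid score. That score is the mean of 10 erythroid markers, each taken relative to its mean over the 16 mice. The points rise from left to right in each panel, with r = 0.854, 0.816 and 0.728 after removal of group means.

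The features most like each gene, by r over the 16 mice with group means removed among 13836 features that averaged 1 RPKM or more, were of differing kinds. For Plxnb1 they were Tmem119, a gene of the osteoblast lineage, Gpr133 and Tbx2 (r = 0.963, 0.945 and 0.943). For Ephb4 they were the matrix metalloproteinase gene Mmp2, Nbl1 and Aebp1 (r = 0.970, 0.970 and 0.962). For Cthrc1 they were the fibrillar collagen gene Col5a2, Fam167a and Galnt5 (r = 0.939, 0.921 and 0.908).

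For Nrp1 the nearest features were the tight-junction gene Tjp1, Dennd5b and Tmem47 (r = 0.969, 0.936 and 0.930), and for Efnb2 they were Triqk, Fam171a1 and Ccnyl1 (r = 0.896, 0.883 and 0.871). For Sphk1 they were Wdr90, the splicing-factor gene U2af2 and Pnpla6 (r = 0.978, 0.978 and 0.974). For Sema4d they were Gm26003, Gm14284 and the myosin gene Myo1d (r = 0.941, 0.930 and 0.917), and for Sema3a Uchl3, Abce1 and Tcrg-C1 (r = 0.841, 0.835 and 0.827). Sema3a thus had the lowest r with its nearest feature of the 8 genes.

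The level of the genes relative to each other was read in Control mice. By RPKM as deposited, Nrp1 came first with 17.2 ± 1.97, followed by Cthrc1 with 7.13 ± 3.83 and Sema4d with 6.33 ± 1.57, then Efnb2 with 2.15 ± 0.461, Ephb4 with 1.91 ± 0.671, Sphk1 with 1.42 ± 0.933, Sema3a with 1.39 ± 0.524 and Plxnb1 with 1.29 ± 0.632 RPKM (SD, n = 8). Of the 7 steps between neighbors, 2 passed an adjusted p of 0.05 by an exact sign-flip permutation test within mice: Nrp1 over Cthrc1 and Sema4d over Efnb2, each in 8 of 8 mice (adjusted p = 0.0273). Ephb4 over Sphk1 was seen in 7 of 8 mice (adjusted exact p = 0.0729), and the other neighbors did not differ beyond their spread.

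That order depended on gene lengths that the deposited RPKM carry. The length implied by the RPKM of Sphk1 was 15085 bases, although its exons merge to 4774 bases and the whole gene spans 5750 bases in GENCODE M21. The implied length was 1.98 times the merged exon length for Ephb4, 1.66 for Cthrc1, 1.42 for Sema4d, 1.15 for Efnb2, 0.978 for Plxnb1, 0.95 for Sema3a and 0.604 for Nrp1. Among genes with 1 annotated transcript the lengths were equal to the base for 74.3%, whereas 57% of genes with several transcripts had an implied length over 1.1 times the merged one, against 8.13% of those with 1 transcript. The rule by which the lengths were set is not given in the sources used here.

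With merged exon lengths, an alternative added after the values had been seen, Cthrc1 (11.9 ± 6.37), Nrp1 (10.4 ± 1.19) and Sema4d (9.01 ± 2.24) came first and did not differ from their neighbors among them beyond the spread (adjusted exact p = 0.93 and 0.123). Sphk1 moved up to 4.47 ± 2.95 and Ephb4 to 3.78 ± 1.33, above Efnb2 with 2.47 ± 0.528, and Sema3a (1.32 ± 0.498) and Plxnb1 (1.27 ± 0.618) remained last (the same scale, SD, n = 8). On this scale 3 steps passed: Sema4d over Sphk1, Ephb4 over Efnb2 and Efnb2 over Sema3a. Each was seen in 7 of 8 mice (adjusted exact p = 0.0365 by the sign-flip test). Comparisons of 1 gene between mice use the same length in every mouse so that its choice bears on them only through the pseudocount.

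**Figure D5:**
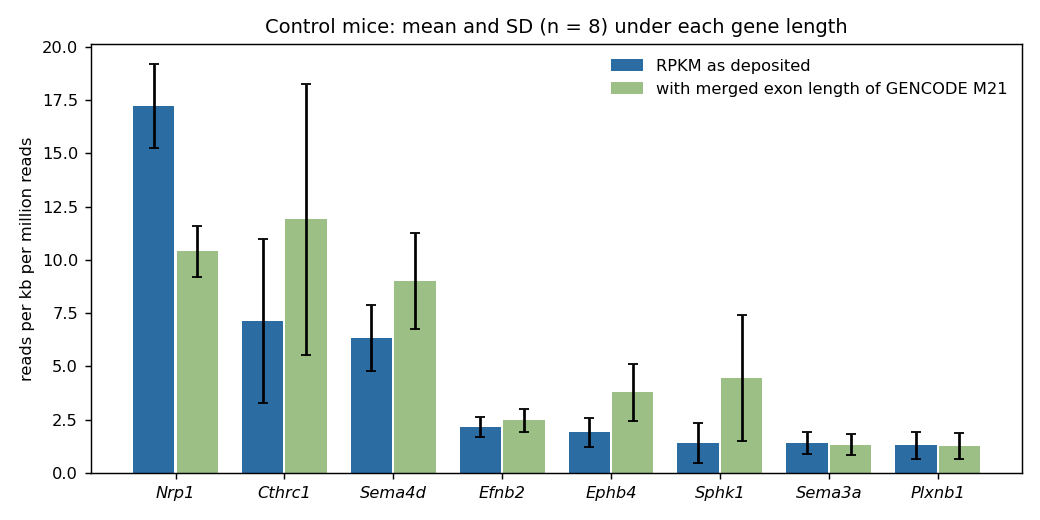
Mean and SD of 8 Control mice for each gene as RPKM as deposited (blue) and with the merged exon length of GENCODE M21 (green), on a linear axis from 0. Nrp1 stands highest as deposited at 17.2 and falls to 10.4, while Sphk1 rises from 1.42 to 4.47.

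Few of the other genes of these pathways were called. Beside the background shares above (1.11% higher and 4.76% lower), 0 of 13 tested semaphorins, 0 of 3 ephrins, 0 of 4 Eph receptors, 0 of 8 genes of Cthrc1 partners and Wnt planar polarity and 0 of 24 other coupling signals and receptors were called in either direction. Their most abundant tested genes were Sema7a (11.7 RPKM in Control mice), Efna1 (3.29), Epha2 (2.74), Vangl1 (3.51) and C3 (70.7), in that order. The median differences were 0.19 for semaphorins, 0.26 for ephrins, 0.12 for Eph receptors, 0.06 for the Cthrc1 list and 0.04 for the other signals, beside -0.10 over all features.

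Single genes were called lower in the other lists, 1 of 19 plexins, neuropilins and partners and 1 of 10 sphingosine-1-phosphate genes. Cd72, a receptor for semaphorin 4D on B cells, ran from 5.43 to 9.97 RPKM in Control and from 4.02 to 7.72 RPKM in HLU mice, with a difference of -0.37 ± 0.15 (SE, limma p = 0.0216, adjusted p = 0.744, exact permutation p = 0.0224). The call was lost under 5 of 31 alternatives, among them quantile normalization (-0.25) and rescaling to nuclear genes (-0.24). All 8 tested B-lymphocyte markers were also lower in mean log2 value, 1 of them called, with sums from 41.2 to 148 RPKM in Control and from 32.4 to 98 RPKM in HLU mice, and their part in the value of Cd72 was not tested.

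Mfsd2b, the exporter of sphingosine-1-phosphate in red cells and platelets, ran from 17.7 to 38.2 RPKM in Control and from 8.27 to 27.9 RPKM in HLU mice, with a difference of -0.53 ± 0.24 (SE, limma p = 0.0427, adjusted p = 0.744, exact permutation p = 0.058). With erythroid and granulocyte scores as covariates the difference was -0.16, no longer past the unadjusted limit (limma adjusted p = 0.327), and the call was lost under 14 of 31 alternatives in all, among them median-of-ratios rescaling (-0.45). The ranges of the erythroid and megakaryocyte sums are given above, and their part in the value of Mfsd2b was not tested.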

How the data were processed

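Femoral cortical bone of 16 mice was profiled by RNA sequencing, and mice were grouped by the titles of their samples. Libraries were made with a TruSeq kit and sequenced on a HiSeq, TopHat2 was used for alignment, and RPKM were deposited by the authors, 1 set per mouse. The submitters' processing notes name mm9 and DESeq2, and the counting tool, gene lengths and scaling are not given in the sources used here.

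The members and lists were chosen with earlier results of these data known. The 16973 features that averaged 0.5 RPKM or more were kept, and log2(RPKM + 0.1) was compared with limma 3.58.1 in R 4.3.3, with a variance trend and Benjamini-Hochberg adjustment over all features kept. Since the deposited unit is RPKM, limma on log2 values was the main test in place of the authors' DESeq2, with voom on recovered reads as an alternative. Single genes and ratios were compared by exact permutation, two-sided, over the 12870 ways to divide 16 mice into 8 and 8 (smallest p = 0.000155). Scripts ran in Python 3.11.15 (scipy 1.17.1, numpy 2.4.6, pandas 2.3.3). Neighboring levels were compared by exact sign flips over 8 Control mice (smallest p = 0.00781). Marker scores are the mean log2(RPKM + 0.1) over the kept genes of a list, each gene taken relative to its mean over the 16 mice. Correlations used group-centered values. Whole reads were recovered within 0.02 for 100.00% of features kept, and library sizes ranged from 7067512 to 21363584 reads. The limma comparison was tested on simulated data. The largest share of features kept with the same value in a pair of mice was 1.53%, so no library was counted as a copy.

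Named genes are the 8 members, the genes of the pathway lists past an unadjusted p of 0.05 and 1.2-fold or else the most abundant tested gene of the list, and the 3 most similar features of each member. The 9 skeletal muscle markers were not analysed here. Positions and exon lengths come from GENCODE M21 and promoters from RefSeq, both on GRCm38. Alternatives covered the pseudocount, the filter, scaling, variance model, replicate block, voom on recovered reads, cell-mixture covariates and leaving out mice. Figures were drawn with matplotlib 3.10.9.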

Additional observations from a re-analysis of the deposited data

Results flagged for a closer look

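Among the 16 groups formed by 8 genes and 2 conditions, 2 held a mouse whose gap to its nearest neighbor was large for the range of the group, and chance alone gives about 1 such group in 20. Sema4d in Control 2 was the lowest of its group at 3.12 RPKM. Sphk1 in HLU 4 was the lowest of its group at 0.462 RPKM. Control 2 was also the smallest library, and HLU 4 had the lowest erythroid score of the 16 mice (-1.23). Whether depth or erythroid markers had a part in either value was not tested.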

How the results depend on the processing

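Over all features, the counts of higher and lower features were 188 and 808 as reported. They were 376 and 401 after median-of-ratios rescaling, 460 and 364 after quantile normalization, 424 and 326 after rescaling to nuclear genes outside the 10 most abundant, and 1267 and 1693 with erythroid and granulocyte scores as covariates. The count of higher features was 391 with no filter, 106 with a minimum mean of 2 RPKM and 108 without the 2 smallest libraries. Leaving out 1 mouse gave 117 to 363 higher and 471 to 1385 lower features, with the extremes without HLU 7 and without HLU 2. The count of higher features was also 310 without HLU 3, and that of lower features 505 without Control 6, 512 without Control 7 and 488 without HLU 1.

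With erythroid and granulocyte scores as covariates, the difference was -0.51 for Sema3a, now past the unadjusted threshold, and the sign turned for Sphk1 (0.39), Sema4d (0.10), Plxnb1 (0.20), Nrp1 (-0.12) and Efnb2 (-0.02). Median-of-ratios rescaling turned Sema4d (0.04) and Cthrc1 (0.08), quantile normalization Sema4d (0.06) and Cthrc1 (0.09), and rescaling to nuclear genes Sema4d (0.09), Plxnb1 (0.04) and Cthrc1 (0.13). Osteoblast and osteocyte scores as covariates turned Nrp1 (-0.06), Ephb4 (-0.04) and Cthrc1 (0.11), array weights Nrp1 (-0.002) and Ephb4 (-0.03), and leaving out the 2 smallest libraries Nrp1 (-0.07), Efnb2 (-0.04), Ephb4 (-0.02) and the ratio of Efnb2 to Ephb4 (-0.02). The cause was not tested. Leaving out 1 mouse gave -0.40 to -0.18 for Sema3a, -0.19 to -0.003 for Sema4d, -0.23 to 0.04 for Plxnb1, -0.04 to 0.07 for Nrp1, -0.001 to 0.21 for Efnb2, -0.04 to 0.16 for Ephb4, -0.47 to -0.10 for Sphk1 and -0.23 to 0.12 for Cthrc1, and no member had a call in any of these fits. The ratios ran from -0.42 to -0.20 (Sema3a to Nrp1), -0.04 to 0.15 (Sema4d to Plxnb1), -0.07 to 0.12 (Efnb2 to Ephb4) and -0.39 to -0.09 (Sema3a to Sema4d).

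Of the member pairs, 7 passed after median-of-ratios rescaling, 7 with erythroid and granulocyte scores, 1 without the 2 smallest libraries, and 2 (without Control 6) to 8 (without HLU 4) with 1 mouse left out, against 4 as reported. Marker relations numbered 20 to 29 with 1 mouse left out, against 25, under alternatives added after the data had been seen. The same-numbered mice of the groups had correlated deviations of -0.166 to 0.510, and 1 of 8 mice correlated best with its own number, so the numbers were not taken as pairs. With the replicate number as a block, the difference was -0.31 for Sema3a and -0.30 for Sphk1, and no member was called. Under the block Cd72 (-0.37) and Mfsd2b (-0.53) were no longer past the unadjusted limit. Of 31 alternatives in all, Cd72 lost its call in 5, with the block, quantile normalization, rescaling to nuclear genes and either pair of marker scores as covariates. Mfsd2b lost it in 14, with the same 5, median-of-ratios rescaling, without the 2 smallest libraries and without Control 2, Control 6, Control 7, HLU 1, HLU 4, HLU 6 or HLU 7. The filter of 2 RPKM left out Sema3a, Plxnb1, Ephb4 and Sphk1.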
